A study of Mus musculus with 23 samples.

Results

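The comparison described here is that of day 0 gastrocnemius muscle, the large calf muscle, between mice lacking lamin A/C (lamin A/C KO, knockout) and control mice, across all genes. Its arrays were chosen by title, and they are 5 of the 23 arrays of the series: 3 of lamin A/C KO and 2 of control. The series followed muscle degeneration and regeneration in mice lacking emerin or lamin A/C, on day 0 and on days 3 and 4 after an injection. Beside the 5 arrays, 10 arrays of lamin A/C KO and control on days 3 and 4 (6 and 4) and 2 arrays of emerin KO on day 0 were compared here. The 6 emerin KO arrays of days 3 and 4 entered only the filter and the shared estimate of the spread. Their ratio of 3' to 5' Gapdh signal, a measure of RNA quality, was 1.4 to 6.09, and 85 of the 100 genes called on day 0 kept the call without them. The lamin A/C KO arrays of day 0 are labelled as taken 0 days after injection, whereas the control arrays and the emerin KO arrays of that day are labelled as without injection. The titles call the control arrays controls of the lamin A line. The allele, the strain, the sex and the age of the mice are not given in the sources used here. Nothing in the labels ties the arrays to separate animals, and the p-values then describe only how these samples vary, which may be technical.

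Lamins A and C are made from 1 gene, Lmna, by alternative splicing. They are intermediate filament proteins that line the inner nuclear membrane, where they hold emerin in place, bind chromatin and the retinoblastoma protein, and carry force between the cytoskeleton and the nucleus. Mutations of LMNA or EMD in people cause Emery-Dreifuss muscular dystrophy, and mice without A-type lamins develop a dystrophy of skeletal and cardiac muscle early in life.

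The values below are array signals, rescaled to 1 trimmed mean per array. A difference is the mean of log2(signal + 32) in lamin A/C KO minus that in control, with its standard error, from limma, so 1 on this scale is a factor of 2 in a bright signal and understates the change of a dim one. A gene was called where its Benjamini-Hochberg adjusted p was under 0.05, and 11164 genes were tested. A signal under 100 was taken as not measured above the minimum, and a gene under it on every array of 1 group is given as "at least" a fold, reckoned from that minimum. The 5 arrays were alike in general: 9252 to 9809 genes reached a signal of 100 on each, the correlation between any pair over all genes tested was 0.938 to 0.967, and the Gapdh 3'/5' signal ratio, a measure of RNA quality, was 0.868, 0.963 and 0.852 on the knockout arrays and 0.829 and 0.949 on the control arrays. The 5 skeletal muscle fiber markers (Acta1, Ckm, Myh4, Tnnt3 and Mylpf) had summed signals of 151130, 159200 and 119620 on the knockout arrays and of 136340 and 133810 on the control arrays, and none of them was called.

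The targeted gene was low in the muscle labelled as its knockout. In the brightest of its probe sets Lmna read 67.7, 56.5 and 109 in lamin A/C KO muscle, against 923 and 857 in control muscle, a difference of -3.10 ± 0.20, adjusted p = 4.9e-09. Of the 3 knockout arrays 1 was just above the minimum signal and the others were below it. The other Lmna probe sets had no such gap between the groups in this direction. The next in brightness read 591, 792 and 435 on the knockout arrays and 588 and 688 on the control arrays. An _x_at set, a type that may share signal with related genes, read 155, 116 and 125 on the knockout arrays and 118 and 141 on the control arrays. In the dimmest set the knockout arrays gave 137, 106 and 24.7 and the control arrays 27.4 and 25.9. The difference of Lmna therefore stands for 1 of its 4 probe sets, and what part of the transcript each of them reads was not tested. Emd, which encodes emerin, read 809, 670.0 and 846 in lamin A/C KO muscle, against 587 and 769.6 in control muscle, and these overlapped (0.19 ± 0.27, adjusted p = 0.90). Among the 26 tested genes of the nuclear envelope and lamina list, Lmna was the only one called. The median difference over the list was 0.00, beside 0.04 over all genes tested, and the B-type lamin genes differed by 0.01 ± 0.17 (Lmnb1, adjusted p = 0.998) and 0.21 ± 0.25 (Lmnb2, adjusted p = 0.87).

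Beyond Lmna, 99 genes were called. Of the 100 called genes (0.896% of those tested), 84 were higher in lamin A/C KO muscle (0.752%) and 16 were lower (0.143%). At an unadjusted p under 0.05 there were 1152 genes (10.3%). Of all genes tested 6213 had a difference above 0 (55.7%) and 4951 one below 0, the background to the sign counts of the lists below. The called differences ran from 0.59 to 3.16 among the higher genes and in size from 0.65 to 3.10 among the lower ones, and exceeded 1 in size for 51 of the higher and 7 of the lower genes. The knockout and control arrays of all 100 called genes did not overlap, which was also so for 3042 of all genes tested (27.2%). For 18 of the 84 higher genes both control arrays were under the minimum signal.

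**Figure D1:**
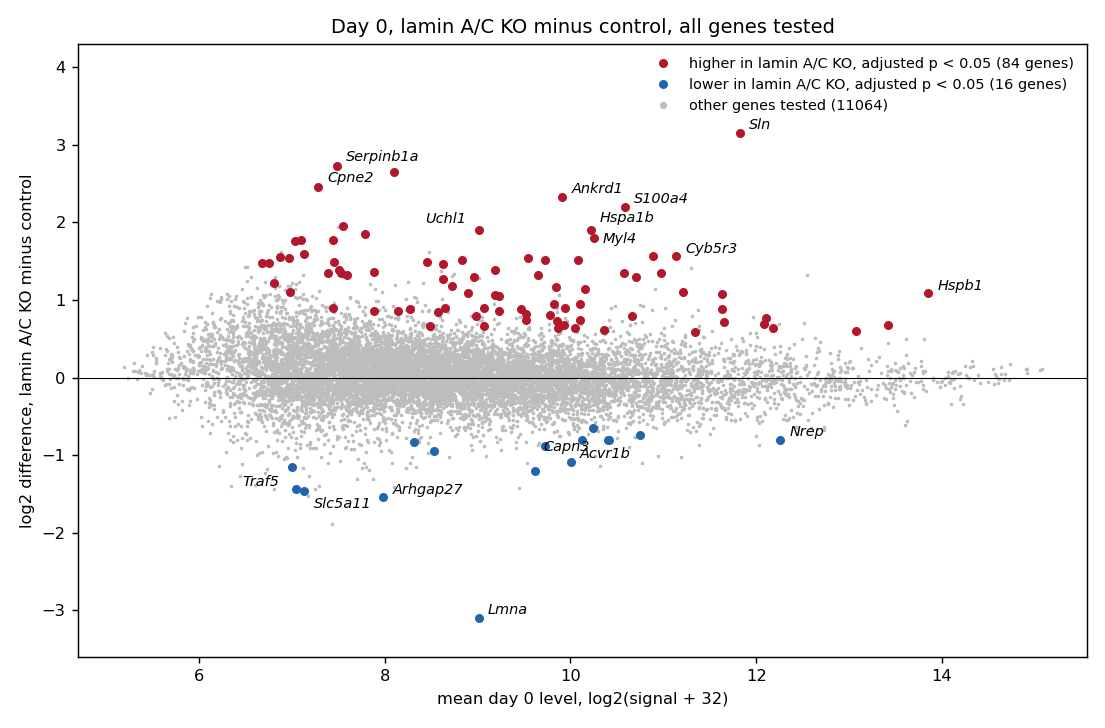
Difference between lamin A/C KO and control on day 0 (vertical axis, log2) against the mean day 0 level of each gene (horizontal axis, log2(signal + 32)), 1 point per gene tested, with the 84 higher genes in red and the 16 lower genes in blue. Sln at 3.16 and Lmna at -3.10 lie farthest from 0.

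The size of the list depended on the arrays in the fit. The 14 residual degrees of freedom come mostly from the other groups: 36 genes were called in a fit of the compared groups alone, and with 1 of the 5 arrays left out 48 to 70 (54 without control replicate 1, 48 without control replicate 2 and 62 without knockout replicate 2). Under all 19 alternatives tried, including those, 16 genes kept their call: Sln, Serpinb1a, Ankrd1, S100a4, Hspa1b, Uchl1, Myl4, Cyb5r3, Myh8, Sat1, Carhsp1, Flnc, Mustn1, Itga7, Acvr1b and Lmna (Carhsp1 and Mustn1 are named after their values were seen). Carhsp1 encodes an RNA-binding protein with a cold shock domain, and the roles of the others are taken up below.

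Sln had the largest difference of all genes tested. It encodes sarcolipin, a small membrane peptide that binds the calcium pump of the sarcoplasmic reticulum and lowers its efficiency, and which in rodents is known mainly from atria and from slow and developing muscle. It read 7402, 4958 and 7107 in lamin A/C KO muscle, against 711 and 667 in control muscle. Every knockout array was far above both control arrays, a difference of 3.16 ± 0.22, adjusted p = 8.5e-09. Sln was the only called member of the 25 tested genes of sarcoplasmic reticulum and calcium handling. The median of that list was -0.23, 19 of the 25 differences were below 0, and the pump genes Atp2a1 (fast muscle) and Atp2a2 (slow muscle) differed by 0.11 ± 0.19 and -0.24 ± 0.20 (adjusted p = 0.92 and adjusted p = 0.76). The slow contractile list, which also holds Sln, had 2 called genes of 16, the other being Cryab, and a median of -0.05. The slow myosin gene Myh7, read as 5451, 4495 and 4438 in KO, against 8087 and 6916 in control, was not called (-0.64 ± 0.25, adjusted p = 0.32).

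The list of the embryonic and neonatal contractile apparatus held 5 called genes of 16, all higher in lamin A/C KO muscle, with a list median of 0.60. Myl4, the embryonic and atrial light chain of myosin, read 1938, 1672 and 1920 in lamin A/C KO muscle, against 363 and 701 in control muscle (1.80 ± 0.21, adjusted p = 3.4e-05). Myh8, the neonatal myosin heavy chain, read 534, 636 and 773 in lamin A/C KO muscle, against 209.6 and 195 in control muscle (1.52 ± 0.20, adjusted p = 1.6e-04). Tnnt2, the cardiac troponin T that developing skeletal muscle also makes, read 505, 576 and 549 in lamin A/C KO muscle, against 134 and 231 in control muscle (1.46 ± 0.21, adjusted p = 4.6e-04). On each of these 3 genes, as on all 100 called genes, the knockout and control arrays did not overlap. The other called members are not parts of the contractile apparatus: Ankrd1, taken up below, and Igf2, the fetal insulin-like growth factor, which read 3987, 3546 and 4708 in lamin A/C KO muscle, against 2349 and 2016 in control muscle (0.89 ± 0.19, adjusted p = 0.021). Igf2 was also the 1 called gene of 33 among imprinted growth genes and the IGF axis, and without either control array or knockout replicate 1 or 3 it was not called. Myh3, the embryonic myosin heavy chain, read 605, 684 and 617 in KO, against 318 and 399 in control, and did not pass (0.78 ± 0.29, adjusted p = 0.30). A dimmer Myl4 probe set had the opposite sign, and the Tnnt2 probe set is of a type (_x_at) that may share signal with relatives. With 1 array left out, 4 or 5 of these 16 genes rose.

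**Figure D2:**
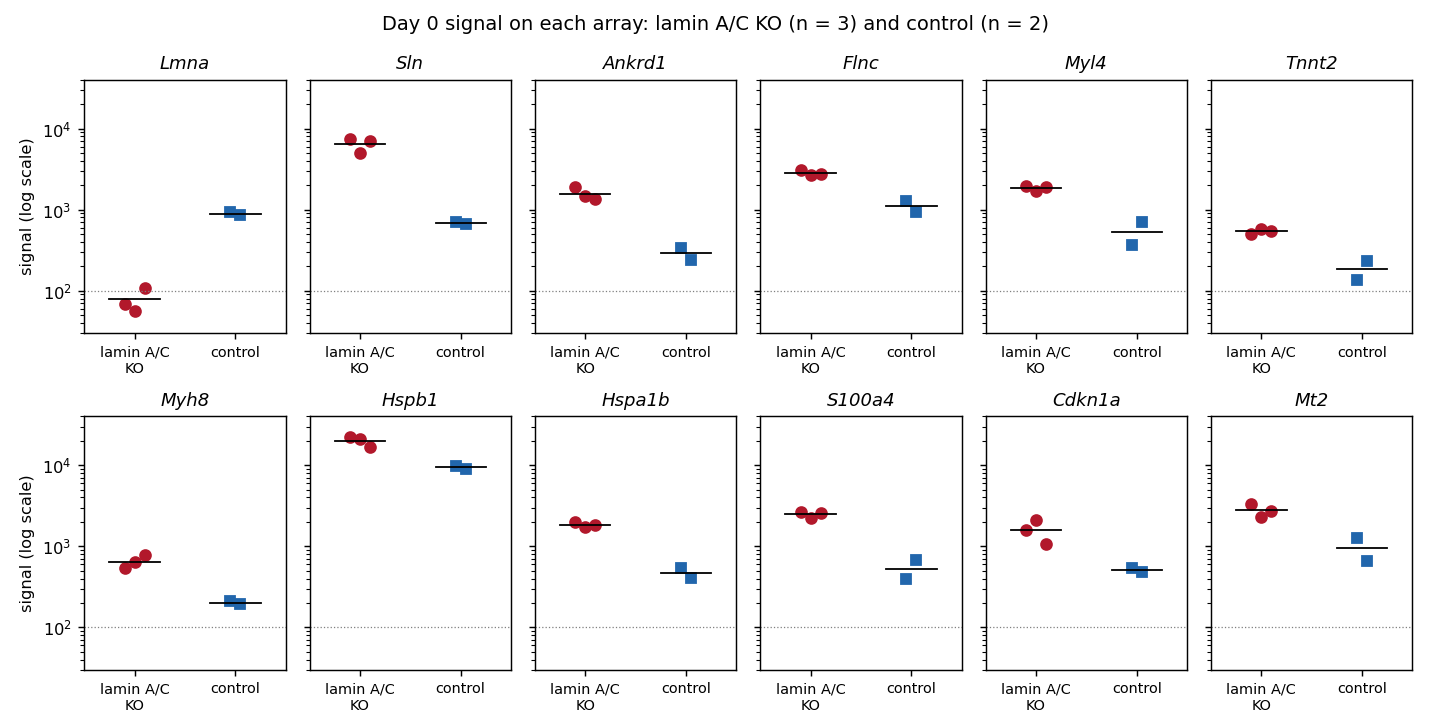
Signal on each day 0 array (vertical axis, log scale) for 12 genes, with lamin A/C KO (red circles, n = 3) left of control (blue squares, n = 2), the group mean as a line and the minimum signal of 100 dotted. Lmna is lower on all 3 knockout arrays, and for the other 11 genes every knockout array lies above both control arrays.

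Genes of the Z-disc, of stretch sensing and of the cytoskeleton held 5 called members of 30, all higher, with a list median of 0.17. Ankrd1, a titin-binding ankyrin repeat protein that moves between the sarcomere and the nucleus and is known to be induced by stretch, read 1891, 1485 and 1354 in lamin A/C KO muscle, against 338 and 239.7 in control muscle (2.33 ± 0.26, adjusted p = 2.1e-05). Flnc, the muscle filamin that links actin at the Z-disc to the membrane, read 3091, 2659 and 2771 in lamin A/C KO muscle, against 1286 and 936 in control muscle (1.34 ± 0.20, adjusted p = 6.2e-04). Hspb1, Sqstm1 and Cryab, the other called members, are chaperones or an autophagy adaptor of the Z-disc and are given with the stress genes. Csrp3, the muscle LIM protein (named after its values were seen), read 9496, 8242 and 6868 in lamin A/C KO muscle, against 5513 and 1907 in control muscle and did not pass (1.32 ± 0.37, adjusted p = 0.11). Without control replicate 2, 3 of the 30 rose, and 4 or 5 rose without any other array. Itga7, the alpha 7 integrin that joins muscle fibers to laminin, was the 1 higher member of the 28 tested genes of the dystrophin complex and membrane, at 1752, 1525 and 1347 in lamin A/C KO muscle, against 640.5 and 713 in control muscle (1.15 ± 0.16, adjusted p = 4.4e-04). Mustn1, a small nuclear protein of muscle and tendon, read 2807, 2385 and 1879 in lamin A/C KO muscle, against 948 and 905 in control muscle (1.30 ± 0.18, adjusted p = 4.0e-04).

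The promoters of Ankrd1 and Tnnt2 are shown because these 2 genes, both active in embryonic and cardiac muscle, rose and both hold the MCAT motif, CATTCC on either strand, which TEAD factors bind. Each window runs from 250 bases before to 50 after the transcript start in RefSeq (build GRCm38.p6), 5' to 3' along the gene, with MCAT matches in capitals. The Ankrd1 window lies at chr19:36119795-36120094 on the minus strand and the Tnnt2 window at chr1:135836084-135836383 on the plus strand.
Ankrd1: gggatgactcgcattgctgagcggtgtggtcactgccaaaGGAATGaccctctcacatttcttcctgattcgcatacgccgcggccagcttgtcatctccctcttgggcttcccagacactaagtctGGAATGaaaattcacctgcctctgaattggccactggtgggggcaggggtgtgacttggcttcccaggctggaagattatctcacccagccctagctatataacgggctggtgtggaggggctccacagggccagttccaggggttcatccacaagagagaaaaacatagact
Tnnt2: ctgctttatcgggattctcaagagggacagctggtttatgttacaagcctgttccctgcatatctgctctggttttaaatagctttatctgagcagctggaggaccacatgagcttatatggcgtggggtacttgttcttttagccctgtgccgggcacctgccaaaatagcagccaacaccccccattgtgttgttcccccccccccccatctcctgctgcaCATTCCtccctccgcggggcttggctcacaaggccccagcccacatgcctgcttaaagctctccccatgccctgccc
Ankrd1 holds 2 matches, starting 210 and 123 bases before the start, and the match at 123 shares its last base with a match to the heat shock motif GAANNTTC described below. Tnnt2 holds 1, starting 27 bases before the start, and none in the second window that RefSeq gives it. Of the other called genes searched, Flnc holds 1 match, the same site seen in both of its 2 overlapping windows. The embryonic contractile genes Myl4 and Myh8 hold none. MCAT occurs in 14.66% of the 32851 windows of the table. A match is a run of letters and was not tested for binding.

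Of 26 cytosolic heat shock genes 4 rose in lamin A/C KO muscle and none fell. The median of the list was 0.22, with 19 of 26 differences above 0 (73.1%, beside 55.7% of all genes tested). These chaperones hold unfolding proteins in solution and refold them, and in muscle the small ones guard desmin, filamin and titin. Hspa1b, an inducible Hsp70, read 1992, 1725 and 1821 in lamin A/C KO muscle, against 536 and 408 in control muscle (1.91 ± 0.23, adjusted p = 5.6e-05). Its near copy Hspa1a read 872, 828 and 639.7 in lamin A/C KO muscle, against 368 and 343 in control muscle (1.06 ± 0.19, adjusted p = 0.0047). The pair may share signal, since the Hspa1b probe set is of the _x_at type, and both other Hspa1b probe sets were also higher on all 3 knockout arrays. Hspb1, the small heat shock protein Hsp25, read 22596, 21095 and 16718 in lamin A/C KO muscle, against 9722 and 9067 in control muscle (1.09 ± 0.18, adjusted p = 0.0026). Cryab, alpha B-crystallin, read 12964, 13981 and 13184 in lamin A/C KO muscle, against 9006 and 7772 in control muscle (0.67 ± 0.15, adjusted p = 0.025). Its 3 probe sets disagreed: the next brightest differed by 1.05 and the dimmest by -0.05. Cryab was not called with any 1 knockout array left out (adjusted p 0.060 to 0.099). It lost the call without either control array too, with differences of 0.78 without replicate 1 and 0.57 without replicate 2. Bag3, the co-chaperone that works with the small heat shock proteins at the Z-disc (named after its values were seen), lay just outside the threshold at 0.57 ± 0.14, adjusted p = 0.051. Without control replicate 2 the count fell to 1, Hspa1b, with Hspb1 at an adjusted p of 0.055 and Hspa1a at 0.072. Without any other array it was 3.

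The promoters of Hspb1 and Hspa1b are shown because both genes rose and their windows hold GAANNTTC, the core of the element bound by heat shock factors. It reads the same on both strands and was counted once. The Hspb1 window lies at chr5:135887669-135887968 on the plus strand and the Hspa1b window at chr17:34959189-34959488 on the minus strand (RefSeq, GRCm38.p6), with matches in capitals.
Hspb1: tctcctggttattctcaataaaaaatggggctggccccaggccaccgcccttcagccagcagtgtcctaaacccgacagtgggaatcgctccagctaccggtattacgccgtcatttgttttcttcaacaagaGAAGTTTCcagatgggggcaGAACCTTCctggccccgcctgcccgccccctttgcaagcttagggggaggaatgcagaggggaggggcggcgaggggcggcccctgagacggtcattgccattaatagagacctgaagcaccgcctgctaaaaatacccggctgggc
Hspa1b: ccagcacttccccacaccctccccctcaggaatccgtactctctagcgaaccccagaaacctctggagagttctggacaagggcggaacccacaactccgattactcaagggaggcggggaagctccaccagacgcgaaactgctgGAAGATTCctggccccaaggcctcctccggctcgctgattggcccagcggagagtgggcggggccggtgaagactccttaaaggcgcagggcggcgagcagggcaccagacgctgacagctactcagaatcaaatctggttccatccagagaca
Hspb1 holds 2 matches, starting 117 and 97 bases before the transcript start, and Hspa1b holds 1, starting 104 bases before it. The Hspa1a window differs from that of Hspa1b at 4 of 300 bases and holds the same match, and the windows of Bag3 and Ankrd1 hold 1 match each. The motif occurs in 7.86% of all windows of the table.

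Genes of metal binding and of defence against oxidation also held called members. Mt2, a metallothionein that binds zinc and copper, read 3291, 2310 and 2723 in lamin A/C KO muscle, against 1254 and 658 in control muscle (1.56 ± 0.23, adjusted p = 6.3e-04, and 0.058 without control replicate 2). Its partner Mt1 read 2337, 2477 and 2348 in KO, against 1563 and 1056 in control, and did not pass (0.88 ± 0.27, adjusted p = 0.16). Both belong to the list of glucocorticoid response and metallothioneins, in which 2 of 26 rose, Mt2 and Cdkn1a, with a median of 0.21. Of 28 oxidative stress and Nrf2 genes 3 rose and none fell, with a median of 0.18. They were Gclc, the catalytic subunit of glutathione synthesis (1.36 ± 0.29, adjusted p = 0.02), Txn1, thioredoxin (0.69 ± 0.14, adjusted p = 0.015), and Gstp1, a glutathione transferase (0.60 ± 0.14, adjusted p = 0.032). Gstp1 was not called with any 1 knockout array left out (adjusted p 0.074 to 0.108). It lost the call without either control array too, with differences of 0.485 without replicate 1 and 0.72 without replicate 2. With 1 array left out 0 to 2 of the 28 rose: 0 without knockout replicate 1, 1 without either control array or knockout replicate 3, and 2 without knockout replicate 2. Gclc had 1 control array under the minimum signal (305, 264 and 318 in KO, against 181 and 43.5 in control) and differed by 0.62 without that array (adjusted p = 0.50).

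The Mt2 promoter is shown for its metal response elements, which the zinc-sensing factor MTF1 binds. The core was searched as TGCACNC or TGCGCNC on both strands and occurs in 25.7% of all windows. The window lies at chr8:94172368-94172667 on the plus strand (RefSeq, GRCm38.p6), with matches in capitals.
Mt2: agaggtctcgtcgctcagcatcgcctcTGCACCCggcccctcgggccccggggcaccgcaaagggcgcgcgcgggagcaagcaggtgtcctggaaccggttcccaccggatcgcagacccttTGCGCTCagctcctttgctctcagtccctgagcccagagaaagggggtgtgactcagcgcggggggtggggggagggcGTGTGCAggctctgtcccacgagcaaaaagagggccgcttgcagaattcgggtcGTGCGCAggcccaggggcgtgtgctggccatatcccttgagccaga
It holds 4 matches, 3 before the transcript start and 1 that begins 5 bases after it, and the Mt1 window holds 3.

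Among genes of protein breakdown, Sqstm1, the autophagy adaptor p62, read 5549, 5371 and 5677 in lamin A/C KO muscle, against 3158 and 3331 in control muscle (0.76 ± 0.12, adjusted p = 0.0019), and Sesn1, a sestrin that restrains the growth kinase mTOR, read 1218, 1157 and 998 in lamin A/C KO muscle, against 665 and 659 in control muscle (0.73 ± 0.17, adjusted p = 0.035). They were the 2 called genes of 32 in the list of atrophy and FoxO targets, whose median was 0.09, and 1 was called without either control array or without knockout replicate 1 or 2. The proteasome list had no called gene of 34, but 30 of its 34 differences were above 0, its median was 0.24, and for 18 genes all knockout arrays were above both control arrays, beside 15.3% of all genes tested. The members with the smallest p were Psmc1, an ATPase of the cap (1805, 1684 and 1931 in KO, against 1258 and 1331 in control, 0.47 ± 0.13, adjusted p = 0.096), and Psmd11, a lid subunit (7638, 8114 and 6980 in KO, against 5831 and 5186 in control, 0.46 ± 0.14, adjusted p = 0.14). Over the 34 genes the summed signal was 115170, 106960 and 115120 on the knockout arrays and 97686 and 94844 on the control arrays.

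Of 27 Rb/E2F and cell cycle control genes 2 rose, and both encode inhibitors of cyclin-dependent kinases. Cdkn1a, which encodes p21, a p53 target and a brake on the cycle, read 1572, 2125 and 1076 in lamin A/C KO muscle, against 547 and 486 in control muscle (1.51 ± 0.26, adjusted p = 0.0027). Cdkn2b, which encodes p15 and blocks the kinases that act on Rb, read 297, 262 and 158 in lamin A/C KO muscle, against 34.7 and 57.1 in control muscle. Both control arrays were below the minimum signal, so it is given as at least 2.31-fold higher (adjusted p = 0.015). Cdkn1a was not called without control replicate 2 (adjusted p = 0.059), and of the 5 fits with an array left out Cdkn2b was called only in that without knockout replicate 3. The pocket protein genes Rb1, Rbl1 and Rbl2 differed by -0.24 ± 0.19, 0.11 ± 0.25 and -0.37 ± 0.26, none of them past the threshold. None of 38 DNA replication genes was called (median 0.02) and none of 38 mitosis genes (median 0.07). Rrm1, a subunit of ribonucleotide reductase, had one of the 2 smallest p of its list (315, 267 and 298 in KO, against 510.0 and 464 in control, -0.68 ± 0.20, adjusted p = 0.14), and Birc5, survivin, one of those of mitosis (166, 227 and 256 in KO, against 131 and 145 in control, 0.53 ± 0.20, adjusted p = 0.28). Of 27 p53 targets 2 rose, Cdkn1a and Sesn1, with a median of 0.16.

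**Figure D3:**
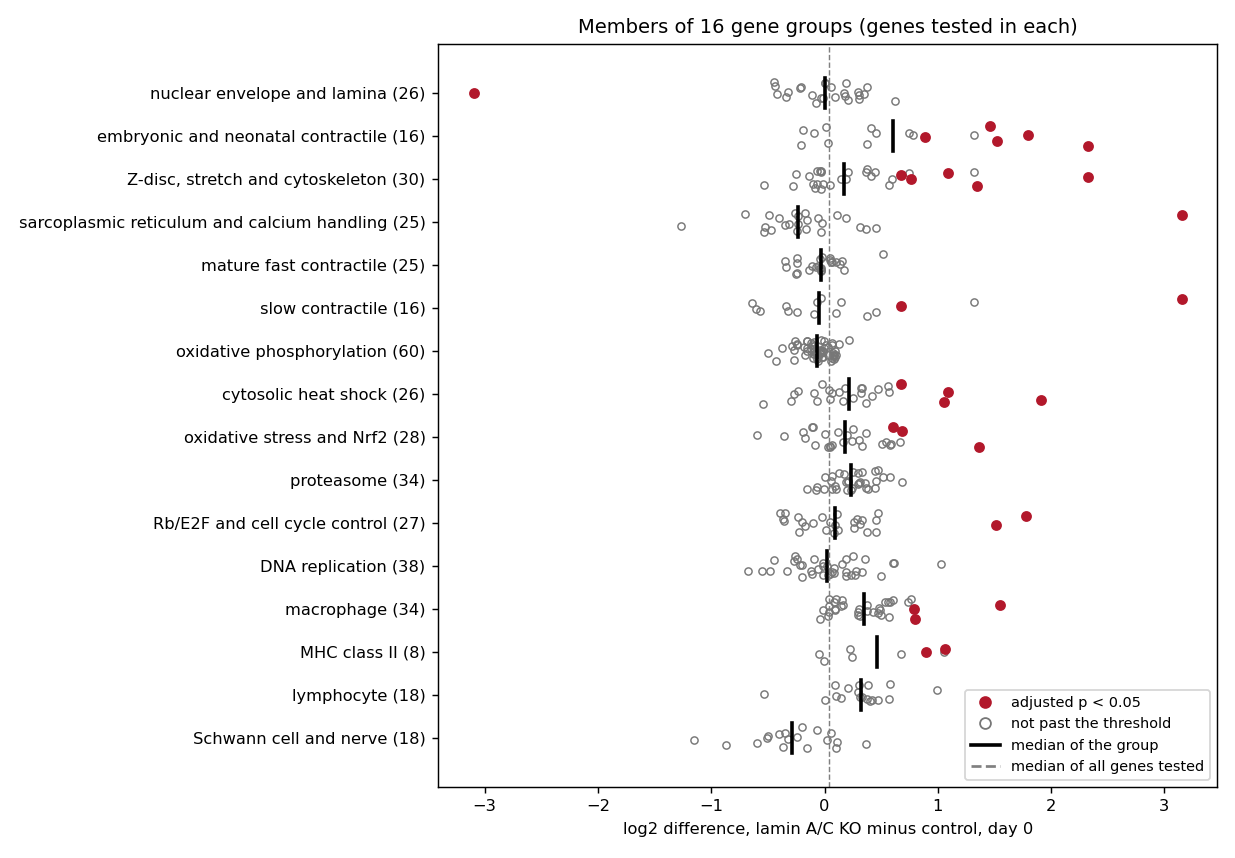
Differences between lamin A/C KO and control on day 0 (horizontal axis, log2) for the members of 16 gene groups, 1 point per gene tested, filled where the adjusted p was under 0.05, with the median of each group (black) and of all genes tested (dashed, 0.04). The embryonic and neonatal contractile group has the highest median (0.60), and the Schwann cell and nerve group the lowest (-0.28).

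Macrophage and antigen presentation genes held 5 called members, all higher in lamin A/C KO muscle. Of 34 macrophage genes 3 rose and none fell, 32 differences were above 0, and the median was 0.35. Lgals3, galectin-3, read 1010, 962 and 1210 in lamin A/C KO muscle, against 225 and 509 in control muscle (1.55 ± 0.23, adjusted p = 7.3e-04). C1qa, a chain of complement C1q, read 969.6, 1298 and 985 in lamin A/C KO muscle, against 549 and 662 in control muscle (0.80 ± 0.14, adjusted p = 0.0052), and Lyz2, macrophage lysozyme, read 1732, 2156 and 2202 in lamin A/C KO muscle, against 1026 and 1291 in control muscle (0.79 ± 0.17, adjusted p = 0.025). Of the 5 macrophage markers, C1qa and Lyz2 were called and Cd68, Csf1r and Adgre1 were not, with differences of 0.15 ± 0.18, 0.43 ± 0.14 and 0.30 ± 0.21. The summed signal of the 5 was 6201, 7638 and 6861 on the knockout arrays and 4146 and 5188 on the control arrays, so all knockout arrays were above both control arrays, and none of the 5 was under the minimum. These are values of whole muscle, in which more cells of a type and more RNA per cell cannot be told apart. In MHC class II 2 of 8 genes rose: H2-Eb1, a class II beta chain (739.7, 978 and 566 in KO, against 338 and 342 in control, 1.06 ± 0.22, adjusted p = 0.016), and Cd74, the invariant chain (1229, 1340 and 1190 in KO, against 629 and 684 in control, 0.90 ± 0.20, adjusted p = 0.03). Without control replicate 1 Lgals3, C1qa and Lyz2 differed by 1.01, 0.67 and 0.63, and none of them kept the call. Lyz2 also lost it without control replicate 2, where it differed by 0.955, and without knockout replicate 2 or 3 (adjusted p 0.099 and 0.097). Of the 34 macrophage genes 2 were called without knockout replicate 2 or 3, and 3 without knockout replicate 1. Cd74 lost its call with any 1 of the 5 arrays left out. H2-Eb1 lost its call without either control array or without knockout replicate 2.

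The other cell types gave no called marker. Of 18 lymphocyte genes none was called, 17 differences were above 0 and the median was 0.32, with Gzma, granzyme A, at 261, 241 and 202 in KO, against 55.6 and 172 in control (0.99 ± 0.43, adjusted p = 0.40). Neutrophil and mast cell genes had a median of -0.06 and endothelial genes one of 0.05, with none called of 17 and 24. The lymphocyte markers summed to 423, 606 and 574 on the knockout arrays and to 478 and 394 on the control arrays, and those of endothelium to 2105, 2427 and 2227 on the knockout arrays and to 2174 and 1804 on the control arrays. Schwann cell and nerve genes lay lower on the whole, with none called of 18, 13 differences below 0 and a median of -0.28. The Schwann cell markers that were tested (2 of 4) summed to 7610, 6827 and 7656 on the knockout arrays and to 12126 and 11140 on the control arrays. The 18 genes summed to 11738, 10863 and 12036 on the knockout arrays and to 17230 and 16385 on the control arrays, and the members with the smallest p were Ugt8a, which makes the galactolipids of myelin (205, 133 and 169.6 in KO, against 460.2 and 365 in control, -1.15 ± 0.42, adjusted p = 0.28), and Mal, a myelin membrane protein (333, 510.1 and 406 in KO, against 655 and 619 in control, -0.59 ± 0.27, adjusted p = 0.43). How much of any called difference moves with these cell types was not tested.

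S100a4 was among the 5 largest rises on named genes and belongs to none of the lists. It encodes a small calcium-binding protein made by fibroblasts, macrophages and other motile cells. It read 2612, 2243 and 2607 in lamin A/C KO muscle, against 394 and 669 in control muscle, a difference of 2.20 ± 0.23, adjusted p = 9.2e-06. Of the fibroblast markers, Col1a1, Col3a1, Dcn and Pdgfra, none was called and all differed by less than 0.10 in size. In the lists of collagens and of matrix, matricellular and fibroblast genes 1 of 32 and 1 of 52 rose: Plod2, a lysyl hydroxylase that modifies collagen (437, 438 and 502 in KO, against 229 and 251 in control, 0.85 ± 0.19, adjusted p = 0.033), and Mmp2, gelatinase A (3013, 2887 and 3342 in KO, against 1924 and 2147 in control, 0.59 ± 0.14, adjusted p = 0.043). Neither was called with any 1 of the 5 arrays left out.

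The other large rises have no common list. Serpinb1a, an inhibitor of elastase-like proteases, read 246, 327 and 265 in lamin A/C KO muscle, against 20 and 10.4 in control muscle, at least 2.78-fold higher (adjusted p = 3.6e-06). Cpne2, a copine that binds membranes in the presence of calcium, read 236, 267 and 193 in lamin A/C KO muscle, against 21.3 and 10.8 in control muscle, at least 2.3-fold higher (adjusted p = 3.6e-04). Uchl1, a ubiquitin hydrolase best known from neurons, read 998, 705 and 659.9 in lamin A/C KO muscle, against 164 and 207 in control muscle (1.90 ± 0.27, adjusted p = 4.0e-04). In all 3, as in all 100 called genes, the knockout arrays did not overlap the control arrays. Cyb5r3, a reductase of cytochrome b5, read 3491, 2802 and 3685 in lamin A/C KO muscle, against 908 and 1327 in control muscle (1.56 ± 0.19, adjusted p = 7.3e-05, an _s_at probe set). Sat1, which acetylates spermidine and spermine for their breakdown, read 1332, 1221 and 1106 in lamin A/C KO muscle, against 443 and 368 in control muscle (1.52 ± 0.20, adjusted p = 1.4e-04), the 1 called gene of 13 in polyamine and muscle growth control. Rrad, a small GTPase that restrains calcium channels, read 295, 322 and 263 in lamin A/C KO muscle, against 10.9 and 155 in control muscle, with 1 of the 2 control arrays above the minimum (1.86 ± 0.39, adjusted p = 0.021, and 0.79 without control replicate 1, adjusted p = 0.52). The remaining members of the 15 largest rises were under the minimum on both control arrays: Pim1, a kinase of survival signalling, Olfm1, an olfactomedin, Sh3bp4, an adaptor of endocytosis, and Kiss1r, the kisspeptin receptor, were at least 2.55-fold, 1.66-fold, 1.69-fold and 1.74-fold higher (adjusted p = 0.017, 0.0081, 1.4e-04 and 0.011). Pim1, Olfm1 and Kiss1r each lost the call without either control array (adjusted p 0.055 to 0.23). A gene model, Gm13889, was also among the largest rises and is only counted.

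Single members of some further lists rose. Chrna1, the alpha subunit of the acetylcholine receptor, which muscle makes more of when denervated, read 1404, 1029 and 1343 in lamin A/C KO muscle, against 845 and 737 in control muscle (0.64 ± 0.15, adjusted p = 0.039), the 1 called gene of 22 in its list. Psat1, an enzyme of serine synthesis, read 608, 562 and 484 in lamin A/C KO muscle, against 274 and 182 in control muscle (1.18 ± 0.20, adjusted p = 0.0027), 1 of 38 in amino acid and ER stress response. Rps25, a ribosomal protein (1.27 ± 0.27, adjusted p = 0.021), was 1 of 31, and Igtp, an interferon-induced GTPase (0.89 ± 0.21, adjusted p = 0.039), was 1 of 33. All 4 lost the call without control replicate 2, with differences of 0.55 (Chrna1), 0.92 (Psat1), 1.08 (Rps25) and 1.11 (Igtp). Chrna1 lost it also without knockout replicate 1 or 3, Rps25 without knockout replicate 1, and Igtp without knockout replicate 2 or 3 (adjusted p 0.098 to 0.147). Of 29 tested myogenic regulators and satellite cell genes only Itga7 was called, with Pax7, the satellite cell factor, at 225, 185 and 123 in KO, against 150.2 and 154 in control (0.16 ± 0.26, adjusted p = 0.92) and Cdh15, M-cadherin, at 498, 493 and 621 in KO, against 402 and 447 in control (0.31 ± 0.16, adjusted p = 0.52).

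Of the 16 lower genes 3 were on a list, each on a different one (Lmna, Capn3 and Scd2). Acvr1b, a type I receptor for activin and myostatin, read 645, 541 and 690.4 in lamin A/C KO muscle, against 1484 and 1240 in control muscle (-1.08 ± 0.16, adjusted p = 6.0e-04). It was the 1 lower gene besides Lmna to stay called under all 19 alternatives, though a dimmer probe set differed by 0.26. Capn3, the muscle protease calpain 3 whose loss causes a limb-girdle muscular dystrophy in people, read 988, 834 and 1060 in lamin A/C KO muscle, against 1676 and 1722 in control muscle (-0.81 ± 0.19, adjusted p = 0.046), and was not called with any 1 of the 5 arrays left out (adjusted p 0.064 to 0.29). Arhgap27 read 83, 63.8 and 159 in lamin A/C KO muscle, against 332 and 350.3 in control muscle (-1.54 ± 0.27, adjusted p = 0.0045). Hvcn1, a proton channel, Traf5, an adaptor of TNF receptors, and Slc5a11, a sugar and inositol transporter, were below the minimum on all knockout arrays and at least 1.42-fold, 1.6-fold and 1.72-fold lower (adjusted p = 0.019, 0.011 and 0.0496). Slc5a11 was not called with any 1 of the 5 arrays left out (adjusted p 0.083 to 0.42), and neither Hvcn1 nor Traf5 was called without either control array (adjusted p 0.078 to 0.18). Nrep, a protein of neuronal regeneration and of fibroblasts, read 3326, 3751 and 3553 in lamin A/C KO muscle, against 6410 and 5991 in control muscle (-0.80 ± 0.14, adjusted p = 0.0047), and Pcca, a mitochondrial propionyl-CoA carboxylase subunit, read 741, 725 and 885 in lamin A/C KO muscle, against 1436 and 1347 in control muscle (-0.81 ± 0.15, adjusted p = 0.01). Scd2, a fatty acid desaturase and the 1 called gene of 28 in the adipocyte and lipid storage list, read 1055, 843 and 939 in lamin A/C KO muscle, against 1384 and 2003 in control muscle (-0.80 ± 0.18, adjusted p = 0.026). Of the others, Sugp2, Itgb6, Mmd, Snhg6 and Rps6ka3 differed by -1.21 ± 0.27, -0.94 ± 0.23, -0.88 ± 0.18, -0.84 ± 0.20 and -0.74 ± 0.17, and Styx was the smallest fall. Each of these genes lost the call without control replicate 2, as did Scd2, and without that array Mmd differed by -0.58 and Scd2 by -0.54. Styx and Snhg6 were not called with any 1 knockout array left out either (adjusted p 0.056 to 0.135). Sugp2 and Mmd lost the call without knockout replicate 1 or 2, Itgb6 without 1 or 3, and Rps6ka3 and Scd2 without 2 or 3 (adjusted p 0.053 to 0.149).

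Mature fast muscle and energy metabolism gave no called gene. Of 25 mature fast contractile genes, 60 of oxidative phosphorylation, 32 of glycolysis and glycogen and 35 of fatty acid oxidation and ketone use none was called, with medians of -0.03, -0.06, -0.03 and 0.00. In oxidative phosphorylation 43 of 60 differences were below 0, all of them 0.50 or less in size, and Cycs, cytochrome c, had one of the smallest p (8763, 10536 and 10607 in KO, against 13999 and 12808 in control, -0.43 ± 0.14, adjusted p = 0.22). The same absence of calls held for the lists of immediate early and MAPK feedback (35 genes), TGF-beta, BMP and Wnt (43), erythroid (7), tendon and cartilage (14), circadian clock (22) and sex-linked genes (4), with medians of 0.09, -0.07, -0.09, -0.13, -0.04 and -0.32. Dbp, an output gene of the clock, came nearest to the threshold among them (1267, 789.7 and 1230 in KO, against 1950 and 2081 in control, -0.89 ± 0.22, adjusted p = 0.064).

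The genotype difference was also taken on the injured days, which use arrays that day 0 does not. On the mean of days 3 and 4, 7 genes were called (0.0627% of those tested, all lower in lamin A/C KO), among them Lmna and none of the other 99 genes of day 0. Lmna read under the minimum on all 6 knockout arrays of those days, and was at least 39.9-fold lower on day 3 and 37.4-fold lower on day 4 (adjusted p = 6.9e-17 on the mean of both days). The other 6 were Myl3, Myh7, Rpl3l, Cd5l, Cpe and Macrod1. At an unadjusted p under 0.05 there were 685 genes (6.14%). The 84 genes higher on day 0 had a median difference of 0.10 on those days, beside -0.03 over all genes tested. Of the 84, 52 were above 0 and none was called. A direct test of the change in difference, days 3 and 4 minus day 0, called 32 genes (0.287%): 30 in which the difference was lower on the injured days (0.269%) and 2 in which it was higher (0.0179%). Of these 32, 29 were called on day 0 (26 of the 84 higher genes and 3 of the 16 lower ones). The day 0 difference is part of this test, so that share does not stand apart from the day 0 calls.

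For Sln, mean signals on days 0, 3 and 4 were 6489, 1950 and 4729 in lamin A/C KO muscle, against 689, 3118 and 5941 in control muscle (change in the log2 difference -3.66 ± 0.26, adjusted p = 4.9e-08). Sln was thus called higher in the knockout on day 0 and was not called on the mean of the injured days. Ankrd1 was nearly level in lamin A/C KO, at 1577, 1623 and 1534, against 289, 1656 and 1673 in control muscle (-2.37 ± 0.31, adjusted p = 4.2e-04). Myh8 read 648, 1132 and 2600 in lamin A/C KO muscle, against 202, 1770 and 4500 in control muscle (-2.23 ± 0.24, adjusted p = 2.5e-05). Its difference on the mean of the injured days was below 0 but was not called (-0.71 ± 0.14, adjusted p = 0.070). Hspa1b had another course, with 1846, 528 and 486 in lamin A/C KO muscle, against 472, 478 and 591 in control muscle (-1.98 ± 0.28, adjusted p = 7.6e-04). Here the knockout mean on the injured days came close to the control level of day 0, whereas for Ankrd1 the control means of the injured days came close to the knockout level of day 0. Arhgap27 changed by 1.95 ± 0.33. Serpinb1a, Sh3bp4 and Lmna, the others of the 8 genes with the largest fitted change, each had a group under the minimum on every array (control on day 0 for the first 2, lamin A/C KO on days 3 and 4 for Lmna), so no size is given for them here. On the injured days the control means of Lmna were 3992 and 3744. The 3 genes called here but not on day 0 were Dio2, Smoc1 and Smtnl1.

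**Figure D4:**
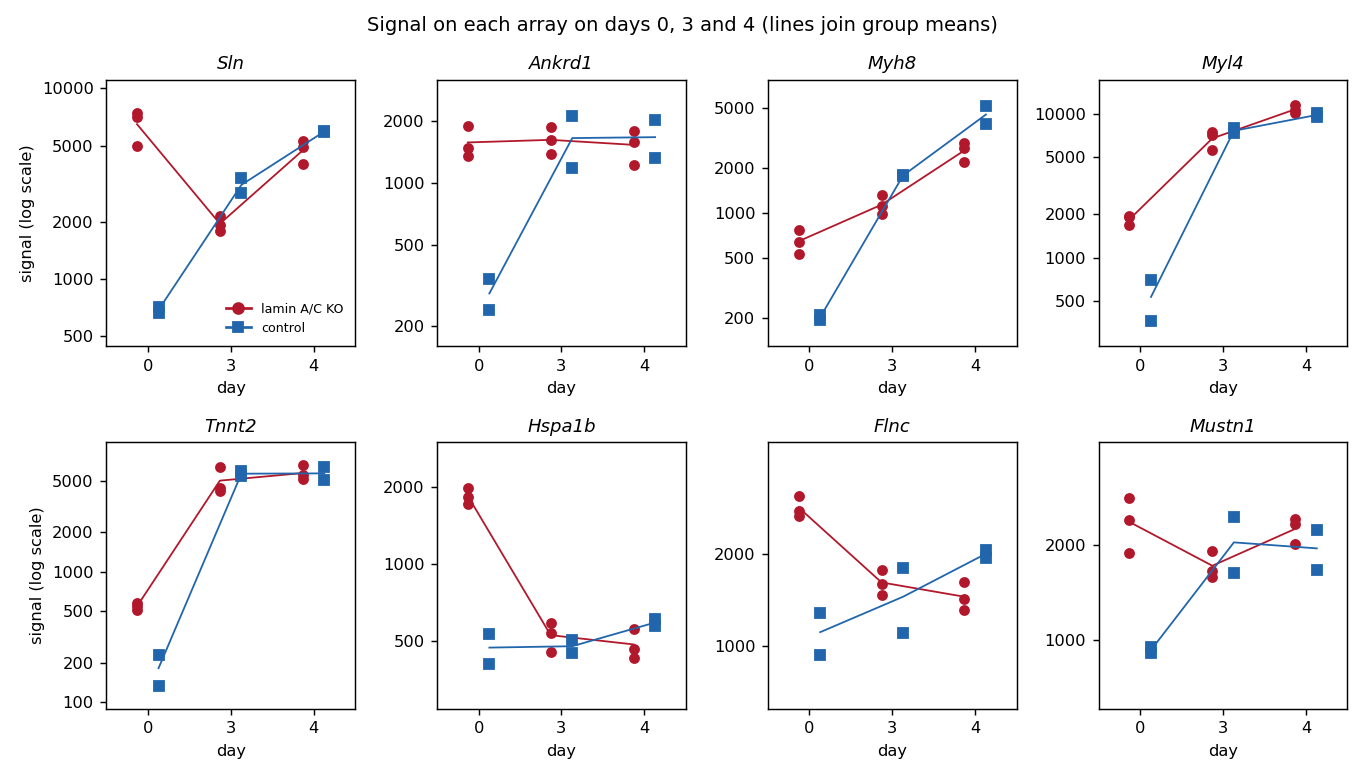
Signal on each array (vertical axis, log scale) on days 0, 3 and 4 for 8 genes called on day 0, with lamin A/C KO in red circles left of control in blue squares, lines through the group means, and the days evenly spaced. In each panel all knockout arrays lie above both control arrays on day 0, and the arrays of Sln and Myh8 lie lower in the knockout on both later days.

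**Figure D5:**
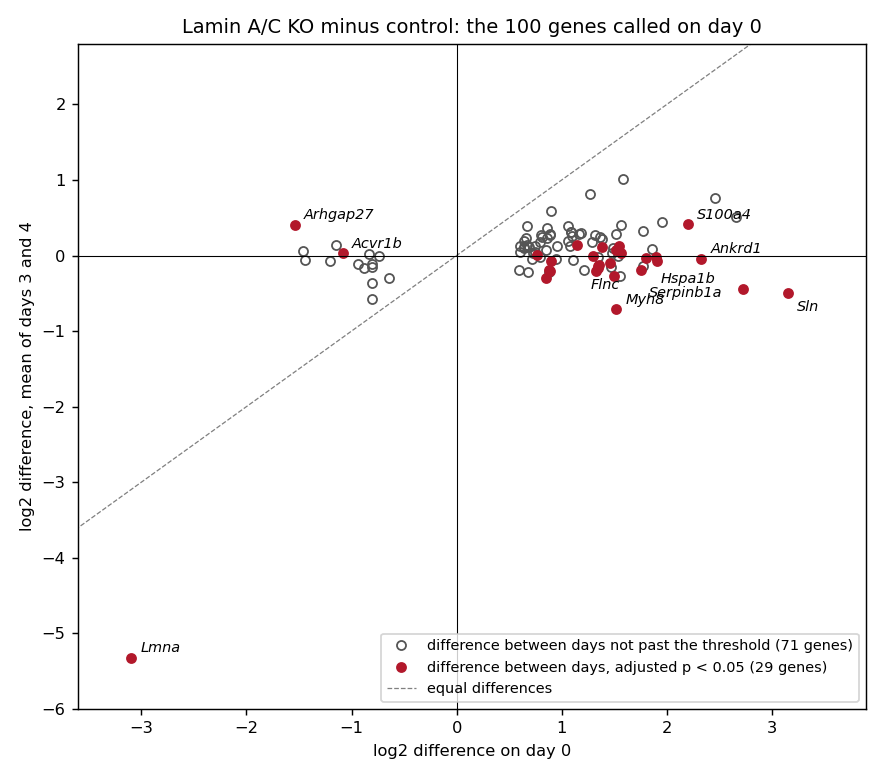
Difference between lamin A/C KO and control on the mean of days 3 and 4 (vertical axis, log2) against that on day 0 (horizontal axis, log2) for the 100 genes called on day 0, filled where the change between them had an adjusted p under 0.05 (29 genes). Lmna lies farthest from 0 on the vertical axis, and Kiss1r, at 1.02, is the highest point on that axis.

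The emerin KO muscle of day 0 gives another group to set beside the same 3 lamin A/C KO arrays. The 2 emerin KO arrays were not alike: replicate 2 correlated at 0.891 to 0.924 with the other day 0 arrays and had a Gapdh 3'/5' ratio of 1.34, against 0.914 for replicate 1. The comparison of lamin A/C KO with emerin KO called 703 genes (6.30%), 467 higher (4.18%) and 236 lower (2.11%), and 353 without emerin KO replicate 2. Since the same lamin A/C KO arrays enter both comparisons, only the values of single genes are given side by side.

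Among the 100 genes called against control, the largest differences from emerin KO were in Tnfrsf12a and Sln. Tnfrsf12a, the receptor of the cytokine TWEAK, read 2220, 1682 and 2544 in lamin A/C KO, 91.6 and 191 in emerin KO and 1102 and 602 in control, so that the 3 groups lay apart. It differed by 3.69 ± 0.27, adjusted p = 1.6e-08 from emerin KO and by 1.34 ± 0.27, adjusted p = 0.016 from control (0.92, adjusted p = 0.36, without control replicate 2). Sln read 371 and 585 in emerin KO, below all other day 0 arrays, and lamin A/C KO differed from it by 3.69 ± 0.22, adjusted p = 4.0e-10. Igf2 read 523 and 688 in emerin KO, so that lamin A/C KO differed from it by 2.69 ± 0.19, adjusted p = 8.3e-09. Serpinb1a, Ankrd1, S100a4, Psat1 and Lmna were the others of the 8, at 2.87 ± 0.26, 2.53 ± 0.26, 2.13 ± 0.23, 2.08 ± 0.20 and -2.73 ± 0.20. Serpinb1a was under the minimum on both emerin KO arrays, so its value there is a fitted one and no measured fold. Ankrd1 and S100a4 read 248 and 239 and 599 and 487 in emerin KO, within or near the control signals of 338 and 239.7 and 394 and 669. Some genes called higher than in control were not called against emerin KO: H2-Eb1 read 1249 and 712 in emerin KO (-0.33 ± 0.22, adjusted p = 0.45), Cd74 1935 and 1334 (-0.35 ± 0.20, adjusted p = 0.37), Kiss1r 239 and 358 (-0.65 ± 0.31, adjusted p = 0.25) and Sqstm1 5754 and 4800 (0.07 ± 0.12, adjusted p = 0.83). Nor were Sh3bp4 (126 and 135 in emerin KO), Gclc (250 and 307.5) and Cpne2 (50.8 and 165). Kiss1r, Sh3bp4, Gclc and Cpne2 were themselves called higher in emerin KO than on the same control arrays (adjusted p = 3.5e-04, 0.0013, 0.025 and 0.040).

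Where a gene had several probe sets, the brightest stood for it. Of the 100 called genes 45 had another probe set of at least the minimum mean signal, and for 10 of these such a set had the opposite sign: Lmna, Myl4, Cryab, Acvr1b, Pafah1b1, Rps6ka3, Tmc1, Anxa7, Atp9a and Bzw1. Pafah1b1, a regulator of dynein, was the clearest case. The brightest of its sets gave 1407, 1054 and 1268 in lamin A/C KO muscle, against 561 and 503 in control muscle (1.17 ± 0.16, adjusted p = 2.8e-04), and the next read 1145, 1117 and 1332 on the knockout arrays and 1623 and 1855 on the control arrays.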

How the data were processed

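The authors deposited 1 MAS5 signal (intensity, linear scale) per probe set and array, per the submitters' processing notes and the values. Its version was not given in the sources used here. Every array had the same trimmed mean (150.04 to 150.06, without the lowest and highest 2%), and was rescaled to 500 (factor 3.332).

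Of 22690 probe sets 64 were Affymetrix controls, 691 carried several gene symbols, 1555 none and 20380 exactly 1. The brightest set stood for each of 12393 genes, and the 11164 that reached a signal of 100 on 2 or more of the 23 arrays were tested on log2(signal + 32). Arrays were grouped by title.

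All p-values are from limma 3.58.1 (R 4.3.3, eBayes with trend=TRUE), fitted to all 9 groups together with 14 residual degrees of freedom, and adjusted by Benjamini-Hochberg over all genes tested. The number of arrays limits the precision. Figures and promoter matches used Python 3.11.15 (pandas 2.3.3, matplotlib 3.10.9).

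The genes, the 41 lists (1219 symbols, 1072 with a probe set) and the tests were chosen with earlier results of these data known. Genes named are the 15 largest rises and falls among called genes with no overlap of arrays, Lmna and Emd, up to 4 called members of a list (or 2 with the smallest p where none was called), cell type markers, and up to 8 genes for the interaction and for emerin KO. Of the others, some are marked as named after their values were seen. Lmnb1, Lmnb2, Atp2a1, Atp2a2, Myh3, Mt1, Rb1, Rbl1 and Rbl2, none of them called, are also named outside this rule and are not marked. Of the genes named, Atp9a, Cyb5r3, Hspa1b, Myl3, Psmd11, Sesn1 and Tnnt2 were read by _x_at or _s_at probe sets, which may share signal with relatives. The labels do not say whether replicate numbers shared by lamin A/C KO and control pair the arrays. The correlations of their deviations from the group means ran from -0.015 to 0.211. They cannot settle it, since the deviations of the 2 control arrays of a day mirror each other.

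Alternative settings were median scaling, quantile normalization, values as deposited, pseudocounts of 1 and 100, no filter, the minimum on 2 of the 5 day 0 arrays, the mean of all probe sets, a variance prior with no trend, the replicate number as a block, the Gapdh ratio as a covariate, leaving out the emerin KO arrays of days 3 and 4, only the compared groups, only the 3 day 0 groups (added after seeing the data), and leaving out each array in turn.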

Additional observations from a re-analysis of the deposited data

Results flagged for a closer look

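For 29 of the genes called on day 0 the genotype difference of days 3 and 4 differed from that of day 0 in the test of the change itself (limma, adjusted p under 0.05). The values are the log2 difference on the injured days minus that on day 0. Among muscle, stretch and stress genes it was -3.66 in Sln, -2.37 in Ankrd1, -2.23 in Myh8, -1.83 in Myl4, -1.56 in Tnnt2, -1.48 in Flnc, -1.3 in Mustn1, -1.0 in Itga7, -1.98 in Hspa1b and -0.75 in Sqstm1. The growth factor gene Igf2 changed by -1.1, the macrophage gene Lgals3 by -1.42, S100a4 by -1.79 and the collagen-modifying Plod2 by -1.14. Genes of other functions were Uchl1 (-1.91), Cyb5r3 (-1.53), Sat1 (-1.45), Carhsp1 (-1.28), Phax (-1.08) and Slc39a6 (-0.98). In 7 further genes the value is only that of the fit and no measured size, since a group was under the minimum signal on all its arrays: Serpinb1a (-3.17), Sh3bp4 (-1.95), Tmc1 (-1.77), Gpr37l1 (-1.54), Afg3l1 (-1.5) and Neil3 (-1.48), in control on day 0, and Lmna (-2.22), in the knockout on both injured days. The change was positive in 2 genes lower on day 0, at 1.95 in Arhgap27 and 1.12 in Acvr1b. The day 0 arrays are part of both tests, so these changes are not independent of the day 0 calls.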

How the results depend on the processing

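The count of 100 genes called on day 0 was 50 with median scaling, under which the median difference of all genes was -0.026 in place of 0.039, 36 with the compared groups alone, 22 with only the 3 day 0 groups (chosen after seeing the data), and 48 to 70 with 1 array left out. It stayed within 1.5 times the count under the other 11 alternatives, and the higher genes made up 76.9% to 93.8% of the calls under all 19. The 7 genes of days 3 and 4 became 3 to 16 with 1 array left out: 14 without control day 3 replicate 1, 16 without lamin A/C KO day 4 replicate 2, and 3 when control day 4 replicate 1 was the array left out. The 32 genes whose difference changed became 16 with median scaling, 56 with the compared groups alone, and 17 to 28 with 1 array left out: 17 without control day 0 replicate 1, 19 if control day 3 replicate 2 was left out, as without lamin A/C KO day 4 replicate 1, and 21 without control day 4 replicate 1 or lamin A/C KO day 4 replicate 3. The 703 genes against emerin KO became 279 with the compared groups alone, 394 with only the 3 day 0 groups, and 353 to 798 with 1 array left out (353 without emerin KO replicate 2). With the replicate number as a block the 4 counts were 104 (88 of the 100 genes kept), 7, 28 and 753. Whether the numbers pair the arrays is not known, so a call lost under the block is not read either way. Of the single genes named or called, Pafah1b1 turned its sign, to -0.007 with the mean of all probe sets. A change of sign was counted only where the main fit or the alternative called the gene. Over all pairs of a named or called gene and an alternative, 562 lost the call, 12 gained it, and 2670 kept their side of the threshold. Those 2670 may include changes of sign in genes that neither fit called. Except where the construction of an alternative shows it (fewer arrays), the cause was not tested. Signals under 100 bound rather than measure a level, and 2 control arrays limit every day 0 difference.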
